A study of Sus scrofa with 102 samples.

Results

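The subcutaneous fat of suckling pigs was compared between 2 crossbred breed types at 12 days of age. These are 11 of the 102 arrays of the series, chosen by the tissue, age and breed given on their labels: 5 of LWDL and 6 of LWDM. LWD females, a cross of Landrace, Large White and Duroc, were mated with a Landrace boar to give LWDL or with a Meishan boar to give LWDM. All animals were female. They came from 2 LWD females and 1 boar for each breed type, so that the animals of a group are sibs or half-sibs, and an effect of the breed type cannot be told apart from one of the boar. On each array the RNA of 1 animal was labeled with Cy3 and set against a control of pooled liver RNA from LWD sows, labeled with Cy5, and the dyes were not exchanged. A value below is the log2 ratio of the sample to this control, and a difference is LWDM minus LWDL on that log2 scale, so that 1 is a 2-fold difference. The fat of fattening pigs at 5 months of age (8 LWDL and 7 LWDM, other animals) and the liver of the sucklings serve for comparison.

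White fat stores triglyceride in adipocytes, which in newborn pigs fill during suckling. The tissue also holds preadipocytes, vessels, nerve fibers with Schwann cells, and immune cells. In pigs the synthesis of new fatty acids takes place largely in the adipocyte, from acetyl-CoA that ATP citrate lyase provides. How much of the fat of sucklings comes from such synthesis was not measured. Meishan pigs are a fat Chinese breed and Landrace a lean European one. The study used the comparison to look for genes behind the difference in backfat thickness between the breeds.

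In the Cy3 channel of the 11 arrays 70.2% to 79.1% of probes passed the background flag, and the median spot was 3.75 to 5.60 times its background. LWDL replicates 1 and 2 shared a slide with LWDM replicates 5 and 6, whereas LWDL replicates 3 to 5 lay on another slide and LWDM replicates 1 to 4 on one of their own. All were scanned on 1 day. Across 28740 probes LWDL replicate 5 had the lowest mean correlation with the other arrays (0.947). In their deviations from the breed type mean, all 11 fat arrays were nearest to the liver array of the same number among the 12-day-old livers of that breed type (correlation of 0.338 to 0.653 across probes, against at most 0.260 with another number), so fat and liver were taken to come from the same animals. The 9 adipocyte markers, among them the lipid droplet coat protein PLIN1 and the hormone LEP, had a mean log2 ratio of 4.14 to 4.5 in LWDL and 3.89 to 4.42 in LWDM, against -0.66 to -0.15 and -0.37 to -0.011 in the liver. Of the 9, 0 were called by limma and by the Student test of the study's methods, with 1 at an unadjusted p under 0.05. The 19 tested skeletal muscle markers were also high, at 3.41 to 5.39 in LWDL and 4.18 to 5.59 in LWDM, where the muscle arrays of the same age were at 6.18 to 6.96 on 6 LWDM arrays, at 6.04 to 6.87 on 4 of 5 LWDL arrays and at 0.12, the liver level, on LWDL muscle replicate 2, and the liver arrays at -0.089 to 0.43 and 0.17 to 0.61. Muscle values of single genes below are therefore those of the LWDM arrays. In fat the arrays of the 2 breed types overlapped in both lists. In whole tissue, a larger share of a cell type and more RNA per cell cannot be told apart.

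**Figure D1:**
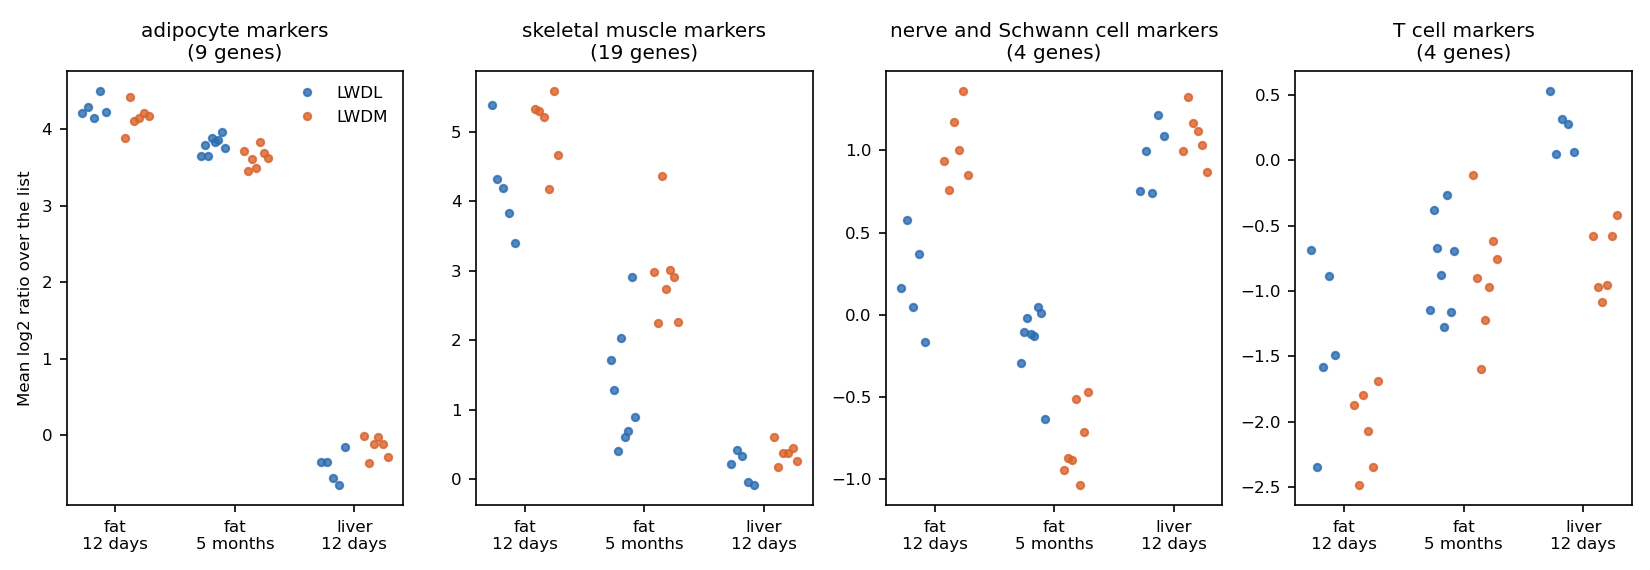
Mean log2 ratio to the control over 4 lists of cell type markers (y axis), for each array of fat at 12 days, fat at 5 months and liver at 12 days (x axis), with LWDL in blue and LWDM in orange. In the fat of sucklings the nerve and Schwann cell markers of the LWDM arrays, from 0.76 to 1.36, lie above those of the LWDL arrays, from -0.17 to 0.58, whereas the other lists overlap.

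Of 30636 probes tested, 450 (1.47%) differed over 2-fold with an adjusted p under 0.05. These are the probes called below, 211 higher (0.689% of those tested) and 239 lower (0.78%) in LWDM. The median difference of all tested probes was -0.0074. At an unadjusted p under 0.05, 7363 probes (24%) passed. For 279 of the called probes every array of one breed type lay above every array of the other, as it did for 1679 probes (5.48%) of all tested. Over 4-fold differences numbered 101, of which 42 were higher and 59 lower in LWDM. Human gene symbols were given for 1469 tested probes of 1100 genes, which the study had picked because they differed in some comparison of these samples. Their share of calls is therefore high from the start, with 157 of 1100 genes called on their brightest probe (14.3%), 83 higher (7.55%) and 74 lower (6.73%) in LWDM. The counts of gene lists below are read against that 14.3% and are not independent evidence. With the slide as a block 28 probes were called, an estimate that rests on the 4 arrays of the slide with both breed types, and within those 4 arrays all 450 probes had the sign of the full comparison, to which they contributed. Without LWDL replicate 5 and LWDM replicate 5, the arrays of each breed type least like the others, 530 probes were called, 339 of them among the 450.

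The homeobox genes HOXA9 and HOXA10, transcription factors that set position along the body axis, were higher in the fat of LWDM sucklings. HOXA9 had log2 ratios of 1.89, 1.07 and 0.51 on 3 LWDL arrays and was listed at 0 on LWDL replicates 3 and 4, where neither channel gave a usable signal. On the LWDM arrays it was between 4.38 and 6.15 (median 5.14). No LWDM array came near the LWDL arrays, and the difference was 4.53 (standard error 0.37, adjusted p = 0.000107). The LWDL side is dim, with 2 of 5 arrays well above background, so the probe was tested through its LWDM arrays and the size of the difference is not exact. With the values listed at 0 as missing it was 4.07 (adjusted p = 0.000774), and with another background correction and normalization of the spot signals (normexp and loess) it was 1.71 (adjusted p = 0.00133). HOXA9 was called in each of the 11 fits with 1 array left out and with the slide as a block, at 4.39 (adjusted p = 0.0034). HOXA10 was less even. Its LWDL arrays were at 3.11, 0.48, -0.065, 0 (listed so) and -0.97, the LWDM arrays between 1.74 and 6.04 (median 3.63), and LWDL replicate 1 lay among the LWDM arrays. The difference was 3.49 (standard error 0.83, adjusted p = 0.0339), both probes of the gene were called, and the call was lost in 8 of the 11 fits with 1 array left out (highest adjusted p = 0.0739) and with the value listed at 0 as missing, at 3.36 (adjusted p = 0.0565). At 5 months HOXA9 lay at 0.31 to 4.87 in LWDL and 1.31 to 6.82 in LWDM, a difference of 2.06 (adjusted p 0.0592). In the liver of the sucklings it was listed at 0 on all 11 arrays. The other tested gene of the list, the tendon and mesenchyme factor MKX, had a difference of 0.21 (adjusted p = 0.563).

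**Figure D2:**
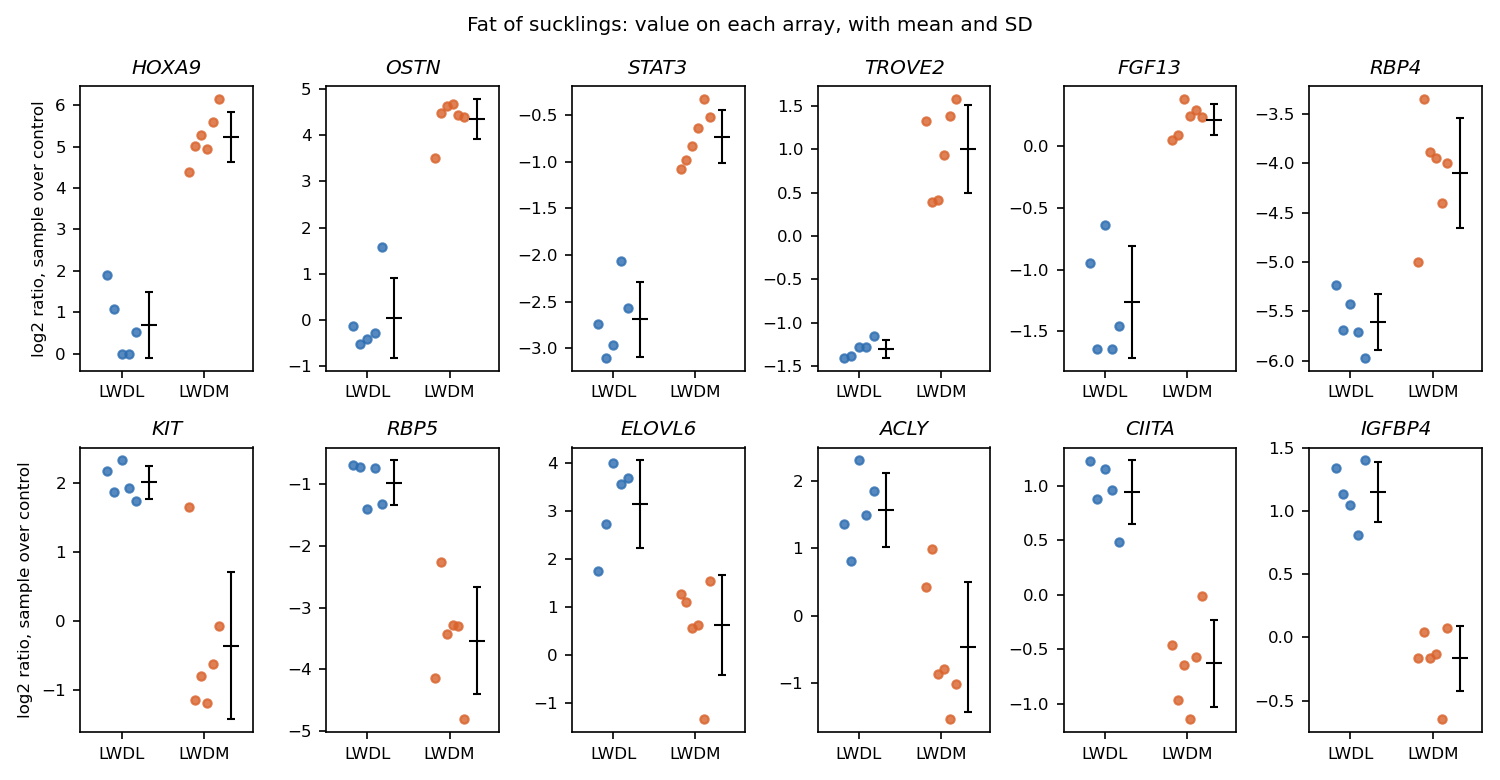
Log2 ratio to the control on each array (y axis) for 12 named genes in the fat of sucklings, LWDL in blue and LWDM in orange (x axis), with the mean and SD of each breed type in black. The breed types do not overlap for any of them except ACLY, where LWDM replicate 2 (0.99) is above LWDL replicate 2 (0.82). Many of the 12 were chosen because their arrays do not overlap, as was so for 5.48% of all tested probes.

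Several secreted and matrix proteins were higher in LWDM. Osteocrin (OSTN), a peptide of bone and muscle that spares natriuretic peptides from clearance, had LWDL values of -0.13, -0.52, -0.42, -0.27 and 1.57 and LWDM values between 3.5 and 4.66 (median 4.45). It was well above background on 1 LWDL array, the high replicate 5, and on all 6 LWDM arrays. The fitted difference was 4.3 (standard error 0.35, adjusted p = 0.000107), which is set against LWDL values that are mostly at background and so has no exact size. With normexp and loess it was 2.41 (adjusted p = 1.15e-05). On the 6 LWDM muscle arrays of the same age OSTN was at -0.60 to 1.24. Gremlin 1 (GREM1), an inhibitor of bone morphogenetic proteins that is made by preadipocytes, was at 4.35, 3.0, 4.67, 3.96 and 4.75 in LWDL and between 5.55 and 6.98 (median 6.42) in LWDM. All LWDM arrays were above all LWDL arrays, with a difference of 2.16 (standard error 0.32, adjusted p = 0.00438).

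Of 30 tested extracellular matrix genes, 6 were called higher and 0 lower in LWDM, and 17 of the 30 differences were above 0 (median 0.17). The called genes are aggrecan (ACAN) and a chain of collagen IX (COL9A3), which build cartilage-like matrix, the matricellular proteins CTGF and NOV, the protease ADAMTS1, and GREM1. ACAN had LWDL values of 0.70, 1.42, 1.8, 1.5 and 3.46 and LWDM values between 2.55 and 4.76 (median 4.32). It was well above background on 1 of 5 LWDL arrays, again replicate 5, which overlapped the lowest LWDM array, and the difference was 2.27 (standard error 0.48, adjusted p = 0.0219). Without LWDM replicate 3 it was 2.22 (adjusted p = 0.0514). NOV was at -0.10, 0.68, 0.38, -0.63 and 0.88 in LWDL and between 1.19 and 2.17 (median 1.79) in LWDM, with a difference of 1.5 (standard error 0.26, adjusted p = 0.00964). ADAMTS1 was more even, at 0.67, 1.13, 1.21, 0.23 and 0.94 in LWDL and between 1.73 and 2.43 (median 2.05) in LWDM. Both of its probes were called, and the difference of the brighter was 1.25 (standard error 0.19, adjusted p = 0.00409). CTGF had a difference of 1.67 (adjusted p = 0.0301) and COL9A3 one of 1.3 (adjusted p = 0.037). These calls are weaker, since they were lost in 5 of the 11 and 8 of the 11 fits with 1 array left out (highest adjusted p = 0.0691 and 0.086). Of the members not called, nidogen 1 (NID1) differed by -0.92 (adjusted p = 0.000794) and papilin (PAPLN) by -0.66 (adjusted p = 0.00495), with no overlap of the arrays and under 2-fold.

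Of 4 tested markers of nerve and Schwann cells 2 were called, both higher in LWDM, and the median difference was 0.91. The mean of the list was at 0.16, 0.58, 0.046, 0.37 and -0.17 on the LWDL arrays and between 0.76 and 1.36 (median 0.97) on the LWDM arrays, so that the breed types did not overlap. The Schwann cell cadherin CDH19 was at -1.13, -0.66, -0.94, -1.06 and -2.21 in LWDL and between -0.33 and 0.38 (median -0.12) in LWDM, a difference of 1.17 (standard error 0.24, adjusted p = 0.021). LWDL replicate 5 was the lowest by far, and without it the difference was 0.92 (adjusted p = 0.0085), under 2-fold. The call was also lost with normexp and loess, at 0.39 (adjusted p = 0.0122), and with the Cy3 channel alone, at 0.96 (adjusted p = 0.0756). The myelin and lymphocyte protein MAL differed by 0.76 (adjusted p = 0.0512) and the neurotrophin receptor NGFR by 0.27 (adjusted p = 0.515), and neither was called. The difference of CDH19 was larger in sucklings than in fattening pigs by 1.4 (adjusted p = 0.00701), and in fattening pigs it was -0.23 (adjusted p 0.388).

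Skeletal muscle markers had positive differences for 18 of 19 genes, with a median of 0.65, and 0 were called. Their number at an unadjusted p under 0.05 was 8 by limma and 4 by the Student test, which also called 0. In fattening pigs 13 of the 16 tested were called, with a median difference of 1.63 over the 16, where 3.08% of all tested probes were called. The share of calls over genes with a symbol, which were picked for differing in some comparison, was not computed at that age. Breed type and slide cannot be told apart in fattening pigs. Myosin light chain MYL2 was at 5.16, 2.68, 2.41, 4.21 and 3.35 in LWDL and between 4.78 and 5.27 (median 5.02) in LWDM. LWDL replicate 1 (5.16) lay with the LWDM arrays, and the difference was 1.44 (standard error 0.41, adjusted p = 0.0601). Without that array it was called at 1.84 (adjusted p = 0.0103). The fast light chain MYL1 differed by 0.85 (adjusted p = 0.144) and the calcium store protein CASQ1 by 0.50 (adjusted p = 0.0852). ACTG1, a cytoplasmic actin, had LWDL values of 1.4, 1.4, 1.34, 1.23 and 1.25 and LWDM values between 1.6 and 2.43 (median 2.07) on the brightest of its 3 probes, a difference of 0.70 (adjusted p = 0.0157) that did not reach 2-fold, and none of the 3 was called. Ryanodine receptor 3 (RYR3), a calcium release channel of muscle and neurons, was called. It was listed at 0 on 4 LWDL arrays and was at 0.54 on the other, with none well above background, and was between 2.22 and 5.31 (median 4.2) on the LWDM arrays. From the signals of the Cy3 channel it was at least 2-fold higher in LWDM, where the fitted ratio gave 4.01 (standard error 0.46, adjusted p = 0.000799). On the 6 LWDM muscle arrays RYR3 was at 6.91 to 7.61. The part of the muscle markers in this difference was not tested.

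Retinoid carriers were called in both directions. Vitamin A reaches tissues on plasma retinol-binding protein, RBP4, which adipocytes also secrete. RBP4 was at -5.23, -5.69, -5.43, -5.72 and -5.97 in LWDL and between -5.0 and -3.35 (median -3.97) in LWDM. The control of the ratio is liver RNA, and the liver is the main source of RBP4. LWDM replicate 1 was next to the LWDL arrays and the others stood well above, the difference was 1.51 (standard error 0.25, adjusted p = 0.00724), and all 3 probes were called. RBP5, a retinol-binding protein inside the cell, was lower in LWDM, with -0.69, -0.71, -1.4, -0.73 and -1.32 in LWDL and between -4.82 and -2.26 (median -3.37) in LWDM. The difference was -2.57 (standard error 0.37, adjusted p = 0.00331), and within the slide with both breed types it was -3.36. Of the 7 tested retinoid genes these 2 were called. Among the other 5, the retinoic acid hydroxylase CYP26B1 differed by 0.82 (adjusted p = 0.0422), under 2-fold, the retinaldehyde dehydrogenase ALDH1A2 by 0.77 (adjusted p = 0.128) and the retinol dehydrogenase RDH16 by 0.58 (adjusted p = 0.284). In the liver of the same sucklings RBP4 and RBP5 differed by 0.33 (adjusted p = 0.113) and 0.25 (adjusted p = 0.293). The effects in fat minus those in liver were 1.18 (adjusted p = 0.0322) and -2.82 (adjusted p = 0.000686).

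Of 14 tested genes of fatty acid and triglyceride synthesis 2 were called, both lower in LWDM. This is the share over all genes with a symbol (14.3%), and 9 of 14 differences were below 0 (median -0.27). The Student test of the study's methods called 0 of the 14 and had 3 at an unadjusted p under 0.05. ELOVL6, which elongates palmitate, had LWDL values of 1.74, 2.74, 3.99, 3.56 and 3.69 and LWDM values between -1.35 and 1.53 (median 0.87). LWDL replicate 1 was the lowest of its group, close above the highest LWDM array. The difference was -2.52 (standard error 0.52, adjusted p = 0.0205), a 5.73-fold lower ratio in LWDM. ATP citrate lyase (ACLY), the source of cytosolic acetyl-CoA, was at 1.37, 0.82, 2.3, 1.5 and 1.84 in LWDL and between -1.53 and 0.99 (median -0.82) in LWDM, with 1 overlap and a difference of -2.03 (standard error 0.43, adjusted p = 0.0218). Both ACLY probes were called. The call of the brighter was lost without LWDL replicate 3 (difference -1.85, adjusted p = 0.0521) and without LWDM replicate 3 (-1.95, adjusted p = 0.0522). SREBF1, the transcription factor of the lipogenic genes, differed by -0.64 (adjusted p = 0.0304) on its brighter probe, under 2-fold, and its dimmer probe was called lower. The malic enzyme ME1, which supplies NADPH to this pathway, differed by -0.11 (adjusted p = 0.916) with a standard error of 0.53. In fattening pigs the ACLY difference had the opposite sign, 1.54 (adjusted p 0.00106), and the change between the ages was -3.58 (adjusted p = 0.000193).

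Fatty acid oxidation had 2 of 16 tested genes called, both lower in LWDM, although 9 of the 16 differences were above 0. The Student test called 0, with 6 at an unadjusted p under 0.05. PPARA, the nuclear receptor that turns on oxidation genes, differed by -1.2 (standard error 0.30, adjusted p = 0.0385). It was well above background on 2 of 6 LWDM arrays, its call was lost in 8 of the 11 fits with 1 array left out (highest adjusted p = 0.0891), and within the slide with both breed types the difference was -0.47. With normexp and loess the PPARA difference was -0.17 (adjusted p = 0.226). SLC27A2, which activates very long chain fatty acids, differed by -1.04 (standard error 0.22, adjusted p = 0.0248), a call lost in 6 of the 11 such fits. The mitochondrial carnitine enzyme CPT2 differed by 0.48 (adjusted p = 0.0706). Of the sterol pathway 0 of 14 tested genes were called, with 1 at an unadjusted p under 0.05, both by limma and by the Student test, and a median of 0.030. In the liver of these sucklings the median of the list was -2.32. Between fat and liver the effects differed for some members, the squalene synthase FDFT1 by 1.94 (adjusted p = 0.000233) and the lanosterol demethylase CYP51A1 by 3.45 (adjusted p = 0.000412).

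In the control of lipolysis 1 of 10 tested genes was called. PDE4B, a phosphodiesterase that breaks down cAMP, the messenger of adrenergic lipolysis, had LWDL values of 0.83, -0.65, 0.15, -2.0 and -1.24 and LWDM values between 2.1 and 2.8 (median 2.36). The LWDL arrays were spread widely and the LWDM arrays narrowly above them. The difference was 2.97 (standard error 0.41, adjusted p = 0.00246), and both probes were called. It was 1.85 (adjusted p = 0.000248) with normexp and loess, and with the slide as a block it was not called, at 2.27 (adjusted p = 0.305). The liver of the same animals had 3.38 (adjusted p = 0.00784). Other members on the same route were not called. The inhibitory adrenergic receptor ADRA2A differed by 0.95 (adjusted p = 0.0481), the adenylyl cyclase ADCY6 by -1.81 (adjusted p = 0.0765), and G0S2, an inhibitor of the lipase ATGL, by -1.25 (adjusted p = 0.0538). In glucose and glycogen metabolism 2 of 19 were called. PPP1R3C, which brings a phosphatase to glycogen, was lower in LWDM, with a difference of -1.04 (standard error 0.20, adjusted p = 0.0165). Without LWDM replicate 6 the PPP1R3C difference was -0.90, under 2-fold. PDK4, the kinase that shuts pyruvate oxidation in fasting, had LWDL values of -0.87, -0.50, -0.64, -0.67 and -1.82 and LWDM values between -1.08 and 2.3 (median 1.63). LWDM replicate 2 (-1.08) lay with the LWDL arrays, and the difference of 2.01 (adjusted p = 0.0596) was not called. PDK4 was called in 1 of the 11 fits with 1 array left out (adjusted p = 0.0138). It was also called with normexp and loess, at 2.07 (adjusted p = 0.0403). In fattening pigs PDK4 differed by -2.63 (adjusted p 0.000265), so that the effect changed with age by 4.64 (adjusted p = 0.000248).

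Of 20 tested interferon and antigen presentation genes 3 were called, all lower in LWDM, near the share over all genes with a symbol (14.3%). Below 0 were 14 of the 20 differences (median -0.41), and the Student test called 2. CIITA, the switch of the class II histocompatibility genes, had LWDL values of 1.23, 0.88, 1.15, 0.96 and 0.48 and LWDM values between -1.14 and -0.0050 (median -0.60), without overlap. The difference was -1.57 (standard error 0.20, adjusted p = 0.00144). With normexp and loess in place of the deposited ratios it was -0.71 (adjusted p = 0.00434), under 2-fold. The interferon-induced GTPase GBP1 was at 2.54, 1.16, 2.73, 2.09 and 1.93 in LWDL and between -0.75 and 1.63 (median -0.18) in LWDM. LWDM replicate 6, at 1.63, was within the LWDL range, whereas the other 5 LWDM arrays were below it. All 4 GBP1 probes were called, and the difference of the brightest was -2.15 (standard error 0.41, adjusted p = 0.014). GBP2 differed by -1.63 (adjusted p = 0.0334), but this call was lost in 8 of the 11 fits with 1 array left out (highest adjusted p = 0.0735). The immunoproteasome subunit PSMB9 differed by -1.08 (adjusted p = 0.0501). Outside the list, the monocyte chemokine CCL8 differed by -2.16 (adjusted p = 0.0474) and VTCN1, an inhibitor of T cell activation, by -2.67 (adjusted p = 0.0347). Each of these was lost in 8 of the 11 fits with 1 array left out, and CCL8 had 1 very high array, LWDL replicate 1 (4.33). The 4 tested T cell markers had a median of -0.64 and 0 were called by either test (3 at an unadjusted p under 0.05 by limma and 1 by the Student test), with -1.03 (adjusted p = 0.11) for CD2 and -0.80 (adjusted p = 0.187) for CD3G. Their mean level was -2.34 to -0.69 in LWDL and -2.49 to -1.69 in LWDM. The part of these cells in the interferon genes was not tested. In the liver of the same sucklings the mean level of these markers was 0.045 to 0.53 in LWDL and -1.09 to -0.42 in LWDM, and GBP1 and GBP2 had differences of -2.32 (adjusted p = 0.00888) and -1.96 (adjusted p = 0.0265).

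Among 15 tested genes of growth factor and phosphatidylinositol 3-kinase signaling, 3 were called. KIT, the receptor of stem cell factor, was at 2.18, 1.88, 2.33, 1.94 and 1.75 in LWDL and between -1.19 and 1.65 (median -0.71) in LWDM. LWDM replicate 1 was just below the LWDL arrays and the other 5 far below. The difference of -2.38 (standard error 0.43, adjusted p = 0.0115) stood beside one of -2.41 (adjusted p 0.00158) in fattening pigs, and the change with age was 0.033 (adjusted p = 0.982). IGFBP4, which binds insulin-like growth factors, was lower in LWDM on every array, with 1.34, 1.13, 1.05, 0.81 and 1.4 in LWDL, between -0.65 and 0.072 (median -0.15) in LWDM and a difference of -1.31 (standard error 0.15, adjusted p = 0.000778). FGF13, a member of the fibroblast growth factor family that stays in the cell, was higher, with -0.94, -1.64, -0.63, -1.65 and -1.46 in LWDL and between 0.050 and 0.39 (median 0.24) in LWDM. The LWDM arrays were within a narrow range, the difference was 1.48 (standard error 0.18, adjusted p = 0.00109), and both probes were called. Angiotensinogen (AGT) and the growth factor FGF2 and the receptors PDGFRA and ERBB4 were not called. Their differences were -0.40 for AGT, -0.057 for FGF2, -0.0048 for PDGFRA and -0.20 for ERBB4, with standard errors of 0.36, 0.29, 0.39 and 0.38. STAT3, which carries cytokine and leptin signals to the nucleus, was higher in LWDM. Its LWDL values were -2.74, -3.1, -2.97, -2.07 and -2.56, its LWDM values lay between -1.08 and -0.33 (median -0.74), and the difference was 1.96 (standard error 0.19, adjusted p = 0.000354).

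**Figure D3:**
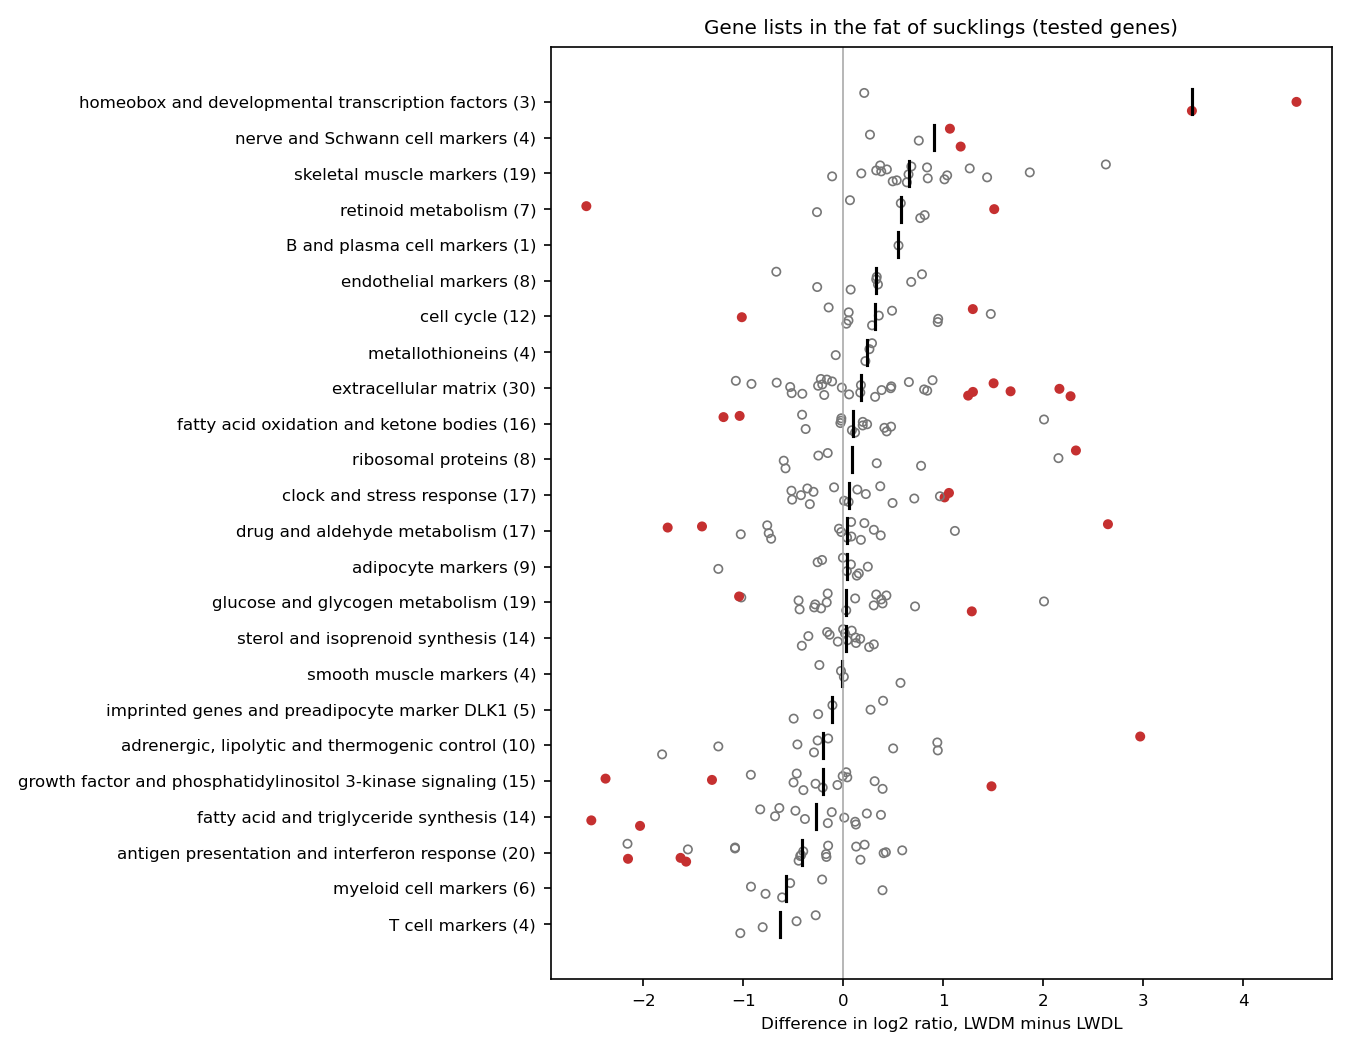
Difference between LWDM and LWDL in the log2 ratio (x axis) for every tested gene of 24 lists (rows, number of tested genes in parentheses) in the fat of sucklings. Red filled points were called, open points were not, and black bars mark the median of the list, which lies above 0 for the nerve and Schwann cell markers (0.91) and below it for antigen presentation and interferon response (-0.41).

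In drug and aldehyde metabolism 3 of 17 tested genes were called. The lactonase PON3, an enzyme carried on high density lipoprotein, was higher in LWDM on all 3 probes, with -3.39, -2.84, -1.91, -1.78 and -2.96 in LWDL and between -1.99 and 0.71 (median 0.45) in LWDM. LWDM replicate 5 (-1.99) fell within the LWDL range, and the difference was 2.65 (standard error 0.48, adjusted p = 0.0115). The glutathione transferases GSTK1 and GSTM3 were lower, with differences of -1.75 (adjusted p = 0.0245) and -1.41 (adjusted p = 0.0417), calls that were lost in 4 of the 11 and 9 of the 11 fits with 1 array left out. GSTM4 differed by -0.76 (adjusted p = 0.0136), under 2-fold. GSTK1 and GSTM3 had differences in fattening pigs of -1.89 (adjusted p 0.00124) and -1.55 (adjusted p 0.000424). In turn, 2 of 17 clock and stress genes were called higher, the chaperone HSPA13 by 1.01 (adjusted p = 0.000933) and the glucocorticoid-induced factor KLF9 by 1.06 (adjusted p = 0.0345). Both lie near 2-fold, and they were lost in 5 of the 11 and 7 of the 11 of such fits. In the cell cycle list the DNA repair factor RAD51AP1 was higher and the mitotic spindle protein HMMR lower in LWDM, with differences of 1.3 (adjusted p = 0.032) and -1.01 (adjusted p = 0.0478), again with calls lost in 7 of the 11 and 10 of the 11. Of 8 ribosomal proteins RPS21 was called at 2.33 (adjusted p = 0.0496). Its LWDL arrays fell apart, with replicates 3 and 5 at 2.35 and 2.74 and the others between -0.64 and -0.44, and the call was lost in 9 of the 11. Smooth muscle (4 genes tested), endothelial (8), myeloid (6) and plasma cell markers (1), imprinted genes (5) and metallothioneins (4) had 0 calls by either test, with 1, 3, 2, 1, 1 and 0 at an unadjusted p under 0.05 by limma and 1, 2, 2, 1, 1 and 0 by the Student test, and with medians of -0.0074, 0.33, -0.57, 0.54, -0.11 and 0.24.

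Among the largest differences were single genes outside the lists. The RNA-binding proteins TROVE2 (Ro60) and ZMAT3 and the histone deacetylase complex subunit FAM60A were higher in LWDM with little spread. TROVE2 was at -1.41, -1.39, -1.28, -1.28 and -1.15 in LWDL and between 0.40 and 1.58 (median 1.13) in LWDM, all 3 probes were called, and the difference was 2.31 (standard error 0.21, adjusted p = 0.000225). ZMAT3 was at 0.66, 0.72, 0.48, 0.40 and 0.46 in LWDL and between 2.93 and 3.57 (median 3.15) in LWDM, a difference of 2.64 (standard error 0.12, adjusted p = 1.67e-06). FAM60A was at 0.090, -0.056, 0.30, -0.0057 and 0.38 in LWDL and between 2.1 and 2.73 (median 2.29) in LWDM, with 2.23 (standard error 0.14, adjusted p = 6.34e-06). With the slide as a block all 3 were called, at 2.88 (adjusted p = 0.0046), 2.62 (adjusted p = 0.00284) and 2.4 (adjusted p = 0.0046). With normexp and loess TROVE2 and ZMAT3 were called, whereas FAM60A was at 0.97 (adjusted p = 0.000341), under 2-fold. The synaptic scaffold HOMER1 differed by 1.9 (standard error 0.38, adjusted p = 0.0175). NSG1, a vesicle protein of neurons, and the actin-binding ABLIM1 were well above background on no LWDL array and on all 6 LWDM arrays. They were at least 2.28-fold and 1.53-fold higher in LWDM by the Cy3 signals, and their fitted differences were 3.98 (adjusted p = 0.000123) and 3.18 (adjusted p = 0.000765).

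Lower in LWDM, and without overlap, were the phospholipid flippase ATP8B2, the testis cell adhesion pseudogene TCAM1P, the spliceosome protein SNRPA1, the kinesin adaptor TRAK1, the skin protease ASPRV1, the transfer RNA enzyme subunit QTRTD1 and the respiratory complex I subunit NDUFB9. ATP8B2 and ASPRV1 were well above background on all 5 LWDL and 0 of 6 LWDM arrays, at least 3.12-fold and 2-fold lower in LWDM. ATP8B2 was listed at 0 on 2 LWDM arrays, as was TCAM1P. The fitted differences of ATP8B2 and ASPRV1 were -4.06 (adjusted p = 0.0115) and -2.93 (adjusted p = 0.0108). TCAM1P had -3.98 (adjusted p = 0.00844), with LWDM replicate 4 (4.26) just below the LWDL arrays and the other LWDM arrays far below. Within LWDM, SNRPA1 and TRAK1 split into high and low arrays. SNRPA1 was at -0.45 and -0.28 on replicates 3 and 4 and between -5.16 and -4.05 on the others, where LWDL was at 0.17 to 0.86. TRAK1 was at -0.91, -0.63 and -0.42 on replicates 1, 3 and 6 and between -4.67 and -4.1 on the rest. Their differences of -3.74 (adjusted p = 0.0344) and -3.25 (adjusted p = 0.0434) were lost in 8 of the 11 and 7 of the 11 fits with 1 array left out. SNRPA1, TRAK1 and TCAM1P were well above background on 2, 3 and 1 of 6 LWDM arrays. Their LWDM values are thus in part at background, and neither the split nor the size of these differences is exact. With normexp and loess ATP8B2 was at -1.58, TCAM1P at -1.44, SNRPA1 at -1.41 and TRAK1 at -1.69, all still called. QTRTD1 differed by -2.57 (adjusted p = 0.00149) and NDUFB9 by -2.54 (adjusted p = 0.0141), and in NDUFB9 LWDM replicate 2 (-0.077) was close to the LWDL arrays. Both genes were well above background on 1 of 6 LWDM arrays, and with normexp and loess they were at -0.51 (adjusted p = 0.00485) and -0.79 (adjusted p = 0.00535), under 2-fold. The genes of this group had 1 tested probe with a symbol. Of probes with no symbol, the largest differences without overlap were 3.95 and 3.63 higher and -5.21 and -2.85 lower in LWDM. All 4 were at background in 1 breed type, and by the Cy3 signals they were at least 1.55-fold, 2.17-fold, 6.68-fold and 1.47-fold apart.

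Part of the breed type difference in fat was also present in the liver of the same sucklings. Of the 450 probes called in fat, 327 were tested in the liver and 125 were called there with the same sign, against 1 with the opposite sign. These are 27.8% of the fat calls and 25% of the 500 liver calls (1.7% of 29342 probes tested; 229 or 0.78% higher and 271 or 0.924% lower). In fattening pigs, which are other animals, 353 of the 450 were tested, 60 were called with the same sign and 14 with the opposite sign. That is 13.3% of the calls in sucklings and 6.37% of the 942 calls in fattening pigs (3.08% of 30590; 540 or 1.77% higher and 402 or 1.31% lower in LWDM). Called in the same direction in all 3 comparisons were 34 probes. The breed type effect differed between the ages for 1133 of the 30636 probes (3.7%) and between the tissues for 310 (1.01%), or 530 with the animal as a random block. These counts include probes at background in the other set of arrays, where the test reads the difference in suckling fat alone. Among probes tested in both sets they were 995 of 29114 (3.42%) and 251 of 28046 (0.895%), with 393 for the tissues under that block. Among the called probes they were 169 of the 353 tested at both ages and 58 of the 327 tested in both tissues, or 82 with the block. Called probes were picked for a large difference in suckling fat, which is 1 side of both tests. Higher shares among them follow from that choice and are not a separate result. The arrays of fattening pigs were scanned on another day than those of sucklings, so that age and scan cannot be told apart in levels, whereas both breed types of an age shared the day. In fattening pigs LWDL lay on 2 slides and LWDM on 2 others, with 0 slides holding both, so at that age an effect of the breed type cannot be told apart from one of the slide, and the same holds for that side of each difference between the ages. With the slide as a random block (estimated correlation 0.0905) 888 probes were called in fattening pigs, and 962 differed between the ages. The livers had the slide layout of the fat of sucklings, and with the slide as a block 92 liver probes were called.

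Some genes differed alike in both tissues of the sucklings and were not called in fattening pigs. For TROVE2 the difference was 2.31 in fat and 2.31 in liver of sucklings, and -0.20 (adjusted p 0.335) in fattening pigs, a change with age of 2.51 (adjusted p = 6.75e-06). The LWDL sucklings were low in fat (-1.41 to -1.15) and liver (-1.64 to -1.17), whereas LWDL fattening pigs were at 1.1 to 1.89 and LWDM fattening pigs at 0.89 to 1.72. ZMAT3 had 2.64 in fat and 2.51 (adjusted p = 2.11e-06) in liver, against -0.24 (adjusted p 0.267) in fattening pigs. Here the LWDM sucklings were the high group, at 2.93 to 3.57 in fat and 2.59 to 3.26 in liver, and LWDM fattening pigs lay at 0.0045 to 0.80. STAT3 differed by 1.87 (adjusted p = 1.92e-05) in the liver and 0.67 (adjusted p 0.102) in fattening pigs. FAM60A differed in all 3 comparisons, by 1.8 (adjusted p = 0.000298) in liver and 2.16 (adjusted p 2.37e-07) in fattening pigs. FGF13 had a larger difference in the fat of sucklings than in their liver, by 1.1 (adjusted p = 0.0308). HOXA9, OSTN, NSG1 and GREM1 were well above background on no liver array, so that their effect could not be compared between the tissues.

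**Figure D4:**
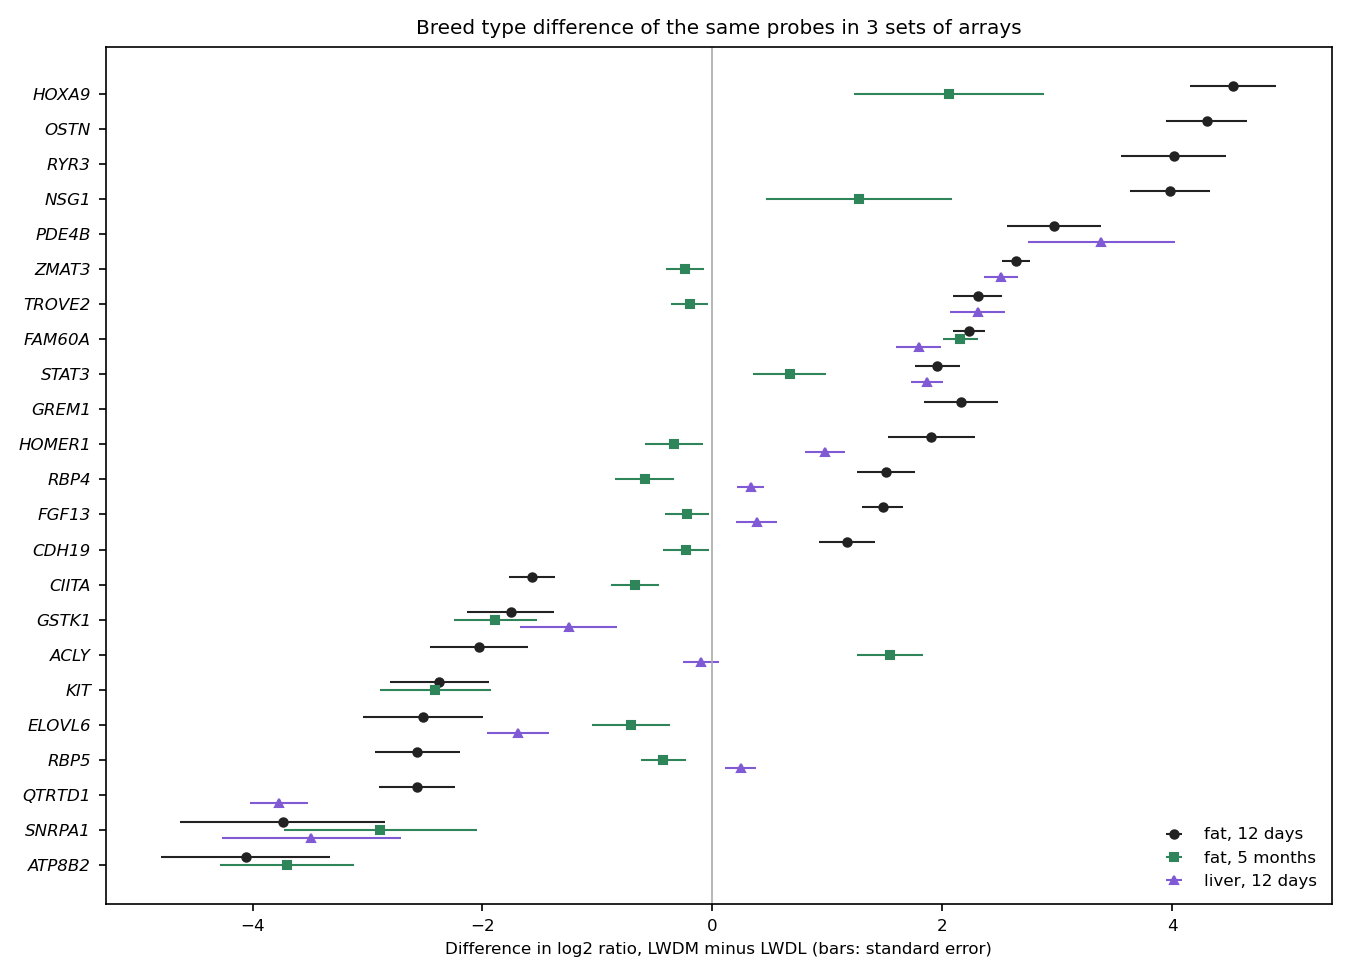
Difference between LWDM and LWDL in the log2 ratio with its standard error (x axis) for 23 named genes (rows) in the fat of sucklings (black circles), the fat of fattening pigs (green squares) and the liver of sucklings (purple triangles), shown where the probe was tested. ZMAT3 and TROVE2 are at 2.64 and 2.31 in fat and at 2.51 and 2.31 in liver of sucklings, and at -0.24 and -0.20 in fattening pigs, whereas KIT and ATP8B2 were called in the fat of both ages, in fattening pigs with the breed types on separate slides.

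Breed type and slide were crossed on 1 slide. For the 55 called genes named in the report and below, the difference within that slide, from 2 LWDL and 2 LWDM arrays, had the sign of the full comparison in all 55, and was between 0.397 and 1.76 times as large. The smallest share was that of PPARA and the largest that of RPS21. With the slide as a block 8 of the 55 remained called, HOXA9, OSTN, NSG1, ZMAT3, TROVE2, FAM60A, STAT3 and APOA1BP. Of these OSTN and NSG1 were not above background on the LWDL arrays of that slide. In each of the 11 fits with 1 array left out 33 of the 55 were called. Normexp and loess gave a smaller difference for 52 of the 55, over 1.5 times smaller for 28, and 20 of the 55 were not called, ABLIM1 (0.73), FAM60A (0.97), ASPRV1 (-1.08), VTCN1 (-0.88), QTRTD1 (-0.51), NDUFB9 (-0.79), CCL8 (-1.48), SLC27A2 (-0.62), PPARA (-0.17), PPP1R3C (-0.90), CDH19 (0.39), ACAN (0.80), CIITA (-0.71), IGFBP4 (-0.85), GSTK1 (-0.97), HSPA13 (0.90), RAD51AP1 (0.54), HMMR (-0.97), CXCL13 (-1.96) and IL2RB (-0.93). Still called but over 1.5 times smaller were 13, ATP8B2 (-1.58), FAM13A (1.11), GREM1 (1.29), HOXA10 (1.47), HOXA9 (1.71), KIT (-1.45), NSG1 (1.28), OSTN (2.41), PDE4B (1.85), RYR3 (1.05), SNRPA1 (-1.41), TCAM1P (-1.44) and TRAK1 (-1.69). The Student test did not call 20 of the 55, SNRPA1, TRAK1, VTCN1, ELOVL6, CCL8, ACLY, SLC27A2, PPARA, ACAN, CTGF, COL9A3, GBP2, GSTK1, GSTM3, KLF9, RAD51AP1, HMMR, HOXA10, RPS21 and CXCL13. The Cy3 channel alone did not call 7, PPP1R3C, CDH19, HSPA13, KLF9, HMMR, RPS21 and CXCL13. Of the 55, 21 were not well above background on every array, so their probes were tested through 1 breed type.

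**Figure D5:**
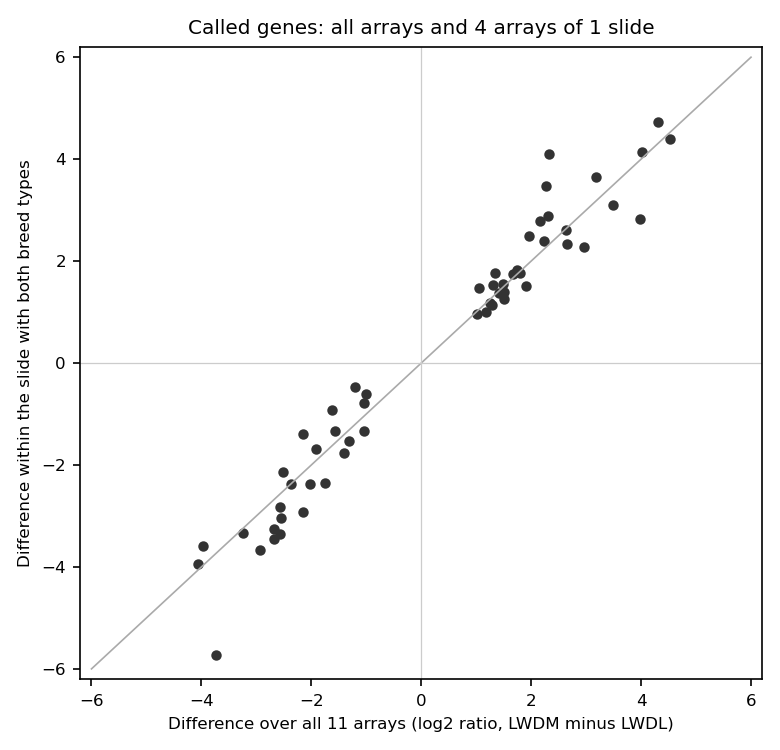
Difference between LWDM and LWDL for the 55 called genes over all 11 arrays (x axis) and within the 4 arrays of the slide that held both breed types (y axis), both in log2 ratio, with the line of equal values in grey. All 55 points lie in the quadrants of equal sign, and SNRPA1, at -3.74 and -5.72, is the farthest from the origin on the negative side. The 4 arrays are part of the 11, so equal signs were favored from the start.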

How the data were processed

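RNA of 1 animal (Cy3) and of a liver control pool (Cy5) was hybridized to an Agilent custom array of 43221 pig 60-mer probes. The authors read it with Agilent Feature Extraction 9.5. Per the file headers, the deposited intensity values (processed Cy3 and Cy5 signals) were background-subtracted, spatially detrended and dye-normalized, and the deposited log10 ratio is that of control to sample. Here its sign was turned and it was converted to log2. The deposited value table of the series holds the same ratios as log10, rounded, with the sign turned, and served as an alternative. Flags other than control type, background and outliers were not used.

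Control spots were left out. Probes were tested where all arrays of 1 breed type or of both passed the Cy3 background flag, with a minimum of 3 values for each breed type. Differences were fitted with limma 3.58.1 in R 4.3.3, with Benjamini-Hochberg adjustment over all tested probes. A probe was called at over 2-fold and an adjusted p under 0.05, the thresholds of the study's methods, which used a Student test. The same fit was made in the fat of fattening pigs (8 LWDL and 7 LWDM) and the liver of sucklings (5 and 6), and interaction terms tested differences between ages and tissues. The script was tested on simulated data.

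Symbols of 2011 probes (1526 genes) came from the study's supplementary tables, whose ratios and p-values of the study's own comparisons were not used. A gene is represented by its brightest tested probe. Named were the 12 genes with the largest called, non-overlapping differences in each direction, called members of gene lists with up to 4 others per list, genes that the study names for this tissue, and 2 probes without symbol in each direction, except where stated. Not all that the rule allows are printed, and some list members that enter the counts and medians are not reported here. The genes and lists were chosen with earlier results of these data known. Alternatives were the test, slide as a block, background correction, channel, filters, centring, samples fitted, array weights, replicate block and leaving out arrays, and, added after the data were seen, the slide as a random block (for the liver also as a block), 2 arrays left out together, and values listed at 0 as missing. A lower bound in fold is the mean log2 Cy3 signal of the bright group over the higher of the dim signal and the lowest signal above background.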

Additional observations from a re-analysis of the deposited data

Results flagged for a closer look

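Arrays far from the rest of their group were sought in 89 groups (55 called genes in 2 breed types, where every array was well above background). A group was noted where the gap of its highest or lowest array was over a set share of the range, a limit that chance passes in about 1 group in 20, and 9 groups were. CCL8 was at 4.33 in LWDL replicate 1, where the others lay between 0.75 and 1.5. ELOVL6 was at -1.35 in LWDM replicate 5, where the others lay between 0.55 and 1.53. GBP1 was at 1.63 in LWDM replicate 6, where the others lay between -0.75 and -0.16. HMMR was at 0.94 in LWDL replicate 1, where the others lay between 2.05 and 2.29. HSPA13 was at 0.59 in LWDL replicate 5, where the others lay between 0.032 and 0.15. IGFBP4 was at -0.65 in LWDM replicate 5, where the others lay between -0.16 and 0.072. NDUFB9 was at 0.13 in LWDL replicate 2, where the others lay between 0.57 and 0.68. OSTN was at 3.5 in LWDM replicate 1, where the others lay between 4.39 and 4.66. PON3 was at -1.99 in LWDM replicate 5, where the others lay between 0.10 and 0.71. LWDM replicate 5 was the array of 3 of the 9 (ELOVL6, IGFBP4 and PON3), and it is also the LWDM array with the lowest mean correlation with the others (0.957).

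The breed type effect differed between sucklings and fattening pigs in the interaction test for 15 of the 43 called genes tested at both ages (adjusted p between 4.48e-08 and 0.0435). The effect in sucklings minus that in fattening pigs, in log2 ratio, was CNTN1 3.68, ZMAT3 2.88, TROVE2 2.51, HOMER1 2.23, RBP4 2.1, PON3 2.03, FGF13 1.7, CA3 1.58, CDH19 1.4, STAT3 1.29 and FAM13A 1.16. It was below 0 for ACLY -3.58, CCL8 -2.45, RBP5 -2.14 and PPP1R3C -1.32. ACLY and CNTN1 had called effects of opposite sign at the 2 ages. In fattening pigs breed type and slide cannot be told apart. With the slide as a random block 14 of the 15 passed, all but STAT3 (adjusted p = 0.0648).

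Between fat and liver of the sucklings the effect differed for 6 of the 39 called genes tested in both tissues (adjusted p between 0.000686 and 0.0353). The effect in fat minus that in liver was NOV 1.5, RBP4 1.18 and FGF13 1.1. It was below 0 for RBP5 -2.82, SLC27A2 -1.95 and ACLY -1.93. Called genes at background in fattening pigs or in liver are left out. With the animal as a random block 8 of the 39 differed, these 6 and PON3 and PPARA. The genes were called in the fat of sucklings before the tests between ages and between tissues, which favors large values in both.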

How the results depend on the processing

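Of 450 probes called in the fat of sucklings, the count was 306 to 570 with other filters, the Cy3 channel alone, the value table of the series (451), centring on the median, all 26 fat arrays in 1 fit, values listed at 0 as missing (439), or the slide as a random block (518), whose estimated correlation of -0.0475 allows for no slide effect. It was 254 by the Student test of the study's methods, 240 with normexp and loess, 699 with array weights, 28 with the slide as a block and 1 with the 4 arrays of the mixed slide only. The cause was not tested, beyond the smaller number of arrays behind the last 2. Similar counts were not always of the same probes. Among the 450 were 391 of the 561 called with the Cy3 channel alone, 312 of the 439 with no filter and 189 of the 240 with normexp and loess. Leaving out 1 array gave 304 to 640. For fattening pigs (942) such fits gave 788 to 1170, for liver (500) 408 to 550, for the difference between ages (1133) 976 to 1247 and for that between tissues (310) 237 to 451. With the slide as a random block they were 888, 575 and 962 for fattening pigs, liver and ages, and with the slide as a block 92 for liver. Normexp and loess gave 460 in fattening pigs, 214 in liver, 643 for the ages and 221 for the tissues.

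Across the named genes and these alternatives, 1857 values kept direction and call, 335 lost the call, 31 gained it and 25 changed sign. With normexp and loess the call was gained by PDK4 (2.07), G0S2 (-1.20) and PSMB9 (-1.01). With 1 array left out it was gained by MYL2, PDK4, ADCY6 and CD2 in 1 fit each and by G0S2, PSMB9 and ADRA2A in 2 each. All sign changes were of genes that were not called. They were -0.25 for NGFR, 0.16 for PLIN1 and 0.23 for ME1 with the slide as a block and in the mixed slide, -0.18 for LEP with normexp and loess and -0.16 with Cy3 alone, 0.010 for PDGFRA with centring and 0.0015 with the random slide block, 0.20 for ERBB4 with array weights, and 0.40 for ME1 without both least correlated arrays. Leaving out 1 array gave -0.38 to 0.21 for PDGFRA, -0.32 to 0.13 for FGF2 and -0.50 to 0.19 for ME1. With normexp and loess 20 of the 55 called genes were not called, and with no filter 15.

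Replicate numbers were not taken to pair LWDL with LWDM animals, since in no set did every same-numbered pair of arrays correlate over 0.1. The deviations of such pairs correlated at -0.18 to 0.098 in the fat of sucklings, -0.17 to 0.25 in that of fattening pigs (5 of 7 pairs over 0.1) and -0.16 to -0.017 in liver. As a replicate block they gave 331 calls, and 914 in fattening pigs, 453 in liver and 1051 for the ages. The animal as a random replicate block between fat and liver gave 530 calls in place of 310 (correlation 0.25).

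With 5 and 6 arrays the precision is limited by their number, and dim spots give only a bound or are listed at 0. Of the called probes 28 were above background in 1 breed type only, where the fitted fold is no bound. With every array above background 306 were called, 303 of them among the 450.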

Other observations

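The genes here were chosen after their values were seen. Carbonic anhydrase 3 (CA3), abundant in adipocytes and slow muscle, was called higher in LWDM on all 7 of its probes. It was at 1.47, 0.92, 1.49, 0.84 and 1.17 in LWDL and between 2.28 and 2.85 (median 2.58) in LWDM, a difference of 1.41 (standard error 0.15, adjusted p = 0.000678), against -0.18 (adjusted p 0.706) in fattening pigs. The breed types did not overlap. The 6 LWDM muscle arrays of that age were at 3.02 to 4.16, and the part of the muscle markers in the difference was not tested. APOA1BP, an enzyme that repairs damaged NAD(P)H, was at -1.21, -1.23, -0.98, -1.14 and -0.95 in LWDL and between 0.47 and 0.84 (median 0.62) in LWDM, and its difference of 1.74 (standard error 0.10, adjusted p = 3.22e-06) was 1.7 (adjusted p = 6.41e-07) in the liver and 1.08 (adjusted p 8.28e-05) in fattening pigs. FAM13A, a gene linked in people to body fat distribution, differed by 1.8 (standard error 0.22, adjusted p = 0.00112) on the brighter of 2 called probes, and by 0.64 (adjusted p 0.000865) in fattening pigs. The neural adhesion protein contactin 1 (CNTN1) was at 3.7, 4.83, 4.02, 4.63 and 4.94 in LWDL and between 5.23 and 6.13 (median 5.85) in LWDM. Its difference of 1.34 (standard error 0.24, adjusted p = 0.0107) was opposite in sign to that in fattening pigs, -2.34 (adjusted p 0.000148).

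CXCL13, the chemokine that draws B cells, had LWDL values of 4.22, 0.62, 1.33, 3.98 and 1.54 and LWDM values between -1.43 and 0.64 (median -0.35). LWDL replicates 1 and 4 stood far above the rest, the difference was -2.68 (standard error 0.64, adjusted p = 0.0344), and it was lost in 6 of the 11 fits with 1 array left out. IL2RB, a receptor chain of T and natural killer cells, was at -0.62, -2.47, -1.89, -1.38 and -1.33 in LWDL and between -4.34 and -2.88 (median -3.41) in LWDM, without overlap, with a difference of -1.92 (standard error 0.32, adjusted p = 0.00752) and of -2.37 (adjusted p = 0.000254) in the liver of the same animals.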
